A study of Lates calcarifer with 24 samples.

Results

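Liver RNA of Asian seabass (Lates calcarifer) was measured on a custom array of 60080 probes. For 38 of them, all 4 arrays labelled Group D (Feed D) lay below the 20 arrays of the other 5 feed groups. The 35 members described here are those that met the further conditions of the rule. On the scanner signal as quantile-normalized here, the Group D mean minus the mean of the other arrays had a median log2 value of -1.51. This is a 2.84-fold difference, and the members ranged from 1.51-fold to 37.6-fold lower. On the authors' log2 values the median was smaller in size, at -1.13, and the largest difference was -4.79 against -5.23. These 35 probes were chosen by the Group D pattern in the authors' normalized values. Group D against the other groups is therefore a description and was not tested. Tests were made only among Groups A, B, C, E and F.

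The liver of a teleost takes up nutrients from the gut, makes and oxidises fatty acids, breaks down amino acids, stores glycogen and secretes most plasma proteins. Its transcript levels are known to respond to the lipid, protein and carbohydrate of the diet. Aquafeed pellets and whole baitfish differ in all of these as well as in water content.

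Juvenile fish of 1 pairwise cross between broodfish selected for growth were fed for 61 days, from 107 to 168 days post-hatch. Group A received frozen baitfish (Feed A, the control), and Groups B, C, D, E and F each received 1 commercial pelleted feed of the same letter. Baitfish was given as a larger daily share of body weight for a like energy intake, Feed E came in a single pellet size, and Feed F was given at a reduced ration because the fish ate less of it. Liver RNA was hybridised to 4 arrays per group. The labels name 4 fish per group, but the methods give a larger number of individuals for RNA extraction, and whether an array holds 1 fish is not stated. All 6 groups were siblings in canvases hung in shared tanks, and the labels do not give the tank of a sample, so that p-values measure the spread between these samples of 1 family. Group letters follow the sample labels. Whether the letters C to F of the arrays and of the feeds are the same was not settled, and if letters were exchanged the pattern described here would belong to another feed.

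The rule that chose the members had 3 conditions beside the first. A probe had to be well above the local background, by the scanner's own flag, on at least 10 of the 20 arrays outside Group D, and 1 or more arrays of B, C, E or F had to be at or above the lowest Group A array. Probes that the study's tables pair with a gene symbol were left out. All 4 Group D arrays were below the 20 others for 38 probes, of which 37 met the flag condition, 36 of these also met the third condition, and 1 of them had a symbol. Because the lowest of 20 arrays sets the limit, the rule also favours probes with a small spread among the other groups. The same first condition with another group as the lowest was met by 128 probes for Group A, 3 for B, 6 for C, 5 for E and 4 for F.

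The distance from the highest Group D array to the lowest other array, here called the gap, ranged widely among the members. It had a median of 0.15 on the log2 scale, was above 1 for 4 members, between 0.1 and 0.5 for 19, and below 0.1 for 12. The narrowest gaps inside the rule were 0.0039, 0.016 and 0.0269. The nearest probes outside it overlapped, with gaps of -0.0029, -0.0033 and -0.0231. Another probe outside had a gap of 0.0129 but was well above background on 8 of the 20 arrays, and 1 with a gap of 0.11 was left out because all its values in B, C, E and F were below those of Group A.

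The members carry no gene names here: the files give a design number and a transcript number for each, and none of the transcript numbers was found in the RefSeq gene table of this species (0 matched). They are therefore described by number, and no function is given to any of them. As a check of the tissue, the probes for serpina1 (alpha-1 antitrypsin) and lbp (lipopolysaccharide binding protein), both secreted by hepatocytes, were well above background on 24 of 24 arrays. None of the marker genes chosen for blood, pancreas and other cells has a named probe here. A change in the mixture of liver cells and a change of RNA per cell therefore cannot be told apart.

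Of all spots on an array, 20.4% to 36.0% were well above background, and in Group D 27.0% to 29.3%. The arrays lay on 3 slides. Slide 1 was dimmer, with a 75th percentile of the signal of 22.2 to 32.9 against 42.4 to 80.2 on the others, and every group had at least 1 array on each slide. Group D had 1, 2 and 1 arrays on slides 1, 2 and 3. Levels below are log2 values of the scanner's processed signal after quantile normalization of all 24 arrays, and are not compared between probes. On this scale 33 of the 35 members still had all Group D arrays below the others, and the other 2 overlapped with gaps of -0.0039 and -0.0085.

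**Figure D1:**
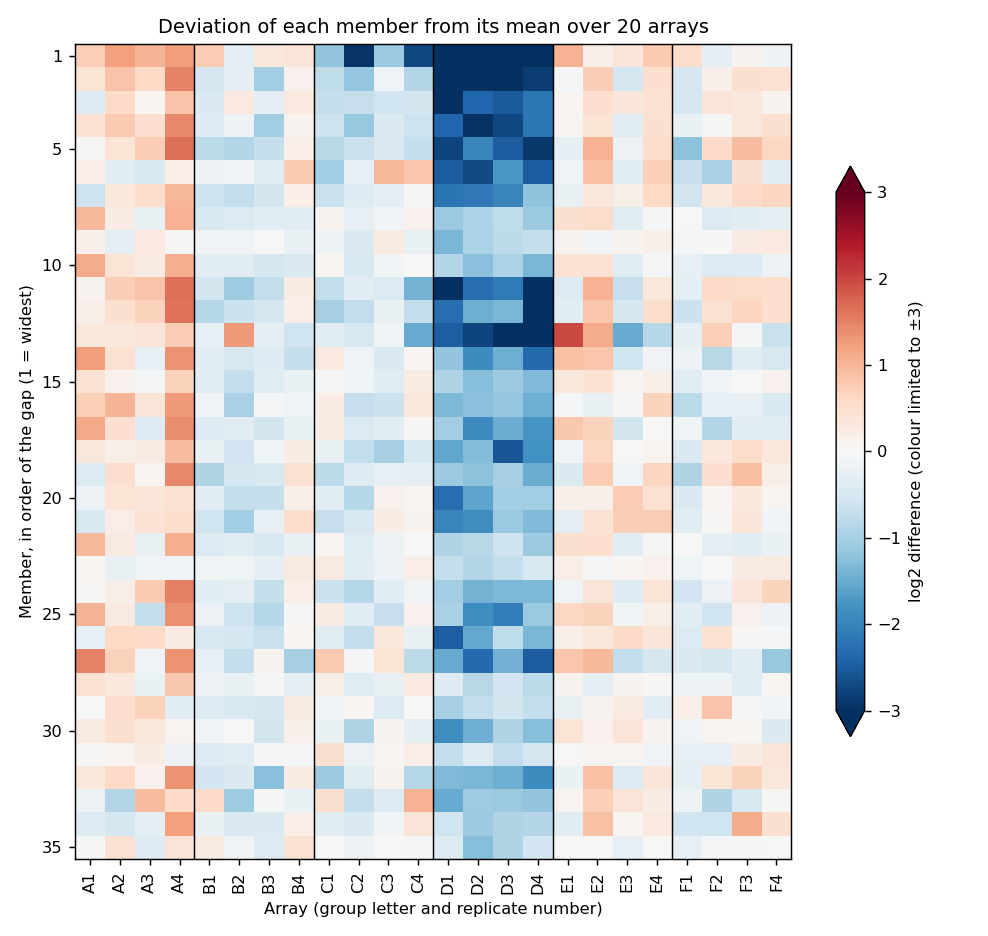
Deviation of each of the 35 members (rows, in order of the gap) from its own mean over the 20 arrays outside Group D, on each of the 24 arrays (columns), as a log2 difference with colours limited to ±3. The 4 Group D columns are blue throughout because the members were selected on them. Group A, array A4 above all, is red in most rows. Groups B and C are pale blue in most, except arrays B4 and C4, whose median deviations over the members were 0.15 and -0.03.

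The member with the widest gap was CUST_13087 (full number CUST_13087_PI428621111, transcript SBRGG_20634). Its levels in Group D were 7.49, 7.87, 7.35 and 7.94. In Group A they were 13.61, 14.13, 13.91 and 14.16. The Group D mean was 7.66 ± 0.29 (SD, n = 4) and that of Group A 13.95 ± 0.25, a difference of -6.29 on the log2 scale. Against the mean of all 20 other arrays Group D was 37.6-fold lower. Of the other groups, Group C had 11.71, 9.96, 11.80 and 10.16. All 4 of these lay below every array of A, B, E and F, whose means were 13.95, 13.20, 13.48 and 12.94. The change from A to C was -3.04 ± 0.38 (SE), with an adjusted p of 0.0038 by limma over all probes. The 2 arrays of Group C on slide 2 were its lowest and its highest (9.96 and 11.80).

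The second was CUST_11970 (transcript SBRGG_14869), for which Group D had levels of 6.55, 6.66, 6.27 and 6.86. The 20 other arrays ran from 8.57 through a median of 9.76 to 11.21. Both ends of that range were again a Group C array and a Group A array. Means ± SD were 10.56 ± 0.48 for Group A, 9.29 ± 0.49 for B, 8.99 ± 0.44 for C, 9.89 ± 0.56 for E and 9.86 ± 0.45 for F. None of the 4 differences from A passed the adjusted threshold by limma, and the nearest was C, at -1.57 ± 0.33 (SE) with an adjusted p of 0.119.

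At the other end of the list, the members with the narrowest gaps were separated from the rest by very little. CUST_57795 (transcript SBRGG_35289) had 10.12, 9.27, 9.64 and 9.96 in Group D, and its other arrays ran from 10.13 to 10.99 with a median of 10.52. The difference between its highest Group D array and the lowest other array was within the spread of any group of 4. CUST_19964 (transcript SBRGG_28928) had 6.50, 6.01, 6.19 and 6.21 in Group D against 6.50 to 8.33 elsewhere, with a median of 6.85. Array A4, at 8.33, lay far above the other Group A arrays (6.57 to 6.80), and Group F had 6.50, 6.50, 8.20 and 7.59. On slide 1 alone the difference between its Group D array and the mean of the 7 others was -0.20.

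**Figure D2:**
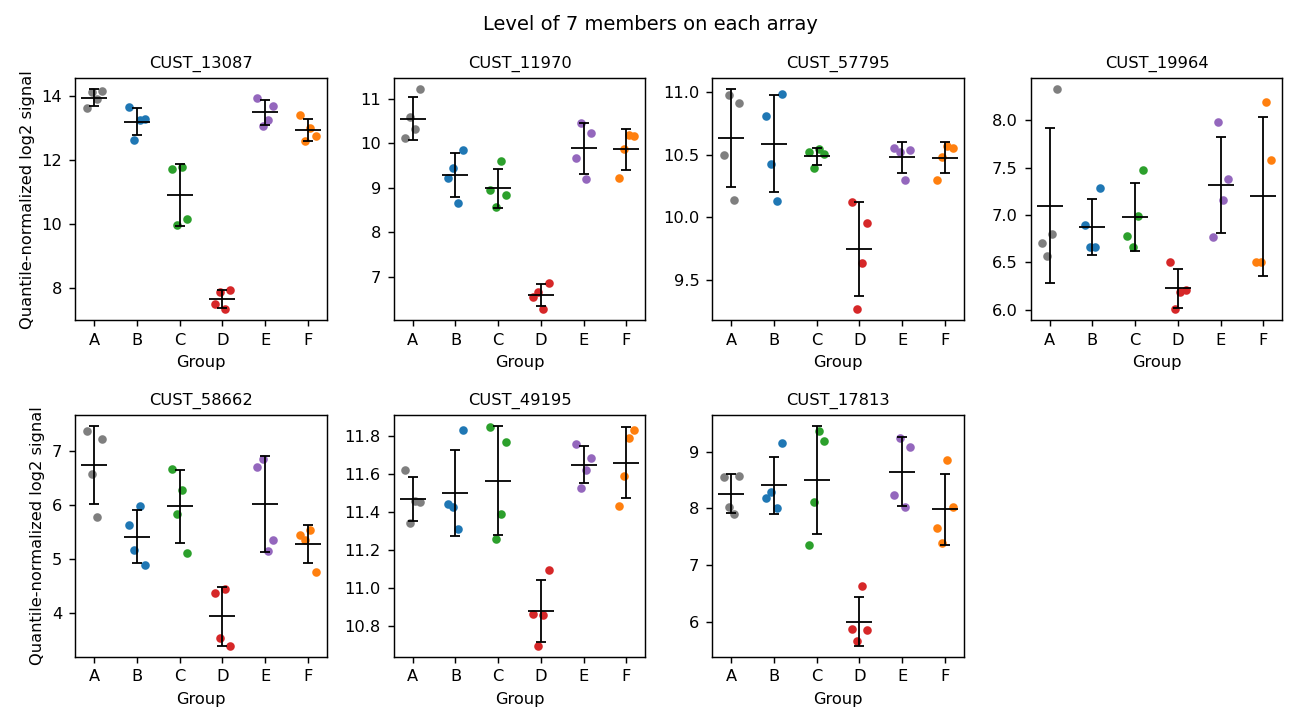
Quantile-normalized log2 signal (vertical axes, a separate scale for each panel) on each of the 4 arrays of Groups A to F for the 7 members named by the rule for named probes, with the mean and SD of each group in black. Group D is the lowest group in each panel, which the selection fixed; CUST_13087 also shows Group C, from 9.96 to 11.80, apart from A, B, E and F.

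The sign of the Group D difference was fixed by the selection, but its size varied among the members. Against the mean of the 20 others, 26 of 35 were at least 2-fold lower in Group D and 9 at least 4-fold lower. Both counts were smaller on the authors' log2 values and after normexp background correction. In both cases only CUST_13087, CUST_11970 and another member were at least 4-fold lower. The median over members was -1.13 and -1.11 there, against -1.51 on the scale of the levels given here. On the latter scale the median difference was -1.91 against Group A, -1.10 against B, -1.22 against C, -1.79 against E and -1.34 against F. Groups A and E were thus the farthest above Group D, and B and C the nearest. Over the 14064 probes that met the flag condition, the median of Group D minus the other arrays was 0.01. Within the slides, the median over members was -1.36 on slide 1, -1.23 on slide 2 and -1.68 on slide 3.

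A total of 31 members were well above background on all 4 Group D arrays, so that for most of them the low level was itself measured. Of the rest, 2 members were well above background on 2 or 3 of these arrays and 2 on none. The 2 without a usable level in Group D were CUST_58662 (transcript SBRGG_50276) and a second probe. Their differences rest on Group D signals that were not well above background, so lower limits are given for them. With the dim arrays set to the lowest signal well above background or the probe's own level, whichever was higher, CUST_58662 was at least 2.04-fold lower in Group D and the other, CUST_38368, at least 2.91-fold. These limits hold on this scale only: on the authors' log2 values the differences were -0.69 and -0.98, and after normexp background correction -0.66 and -0.85, all smaller than the limits. With both at these limits the median difference was -1.48, and 8 members were at least 4-fold lower. No member was saturated on any array (0 of 35), and 33 were well above background on all 20 other arrays.

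Averaged over the 35 probes, the deviation from the mean of the 20 others was -1.71, -1.70, -1.56 and -1.71 on the 4 Group D arrays. The rule used these values and favours probes on which no Group D array is high, so nothing is read from their closeness. The lowest array differed from member to member, since replicates 1, 2, 3 and 4 were the lowest of the 4 for 10, 8, 5 and 12 members.

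Groups A, B, C, E and F were compared with their 20 arrays alone. The rule was not blind to these arrays, since their lowest value set its limit and the third condition removed 1 probe on which all of B, C, E and F lay below A. Most members had lower fitted means in the pellet-fed groups than in the baitfish group. The median over members was -0.72 for B minus A, with 33 of 35 members below 0. It was -0.66 for C minus A (32 of 35), -0.49 for F minus A (31 of 35) and -0.28 for E minus A (26 of 35). Over the 14064 probes that met the flag condition the 4 medians lay between 0.01 and 0.05. These 4 contrasts share the Group A arrays, so that a high array in Group A enters all of them.

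At an unadjusted p below 0.05 (limma), 21 members were lower in B than in A, against 3.33% of all probes and 6.56% of those that met the flag condition. For C there were 18 members, against 2.69% of all and 4.92% of the flagged probes. For F there were 11 members, against 2.89% and 5.44%. For E there were 3 members, 8.57% of the 35, against 3.13% and 5.77%. As shares of the 35 members the first 3 counts are 60%, 51.4% and 31.4%, above the background. The count for E lay nearer to the background in this fit, which leaves slide out. With slide as a block that count was 8, and the share of all probes was not counted there. The rule favours probes with a small spread, which can raise such counts. In the 5 groups the median within-group SD was 0.33 to 0.46 over members and 0.41 to 0.60 over flagged probes. Members were also correlated, so the excess over the background was not tested.

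After adjustment over all probes, and with at least a 2-fold change, 1 member was lower in C than in A, CUST_13087, where 0.0166% of all probes were called lower. In B, E and F there were 0 members, where 0.015%, 0.00166% and 0.00832% of all probes were called lower. The lowest adjusted p of any member was 0.0579 in B, 0.466 in E and 0.153 in F. With the methods' t-test, which does not share variances between probes, no member was called in C either (0). The same test gave 14 members in C at an unadjusted p below 0.05, against 4.1% of all probes. The count in B was 18, against 4.63% of all probes, and in F it was 7, against 3.6%. In E it was 1, or 2.86% of the 35, which lay below the 4.95% of all probes.

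**Figure D3:**
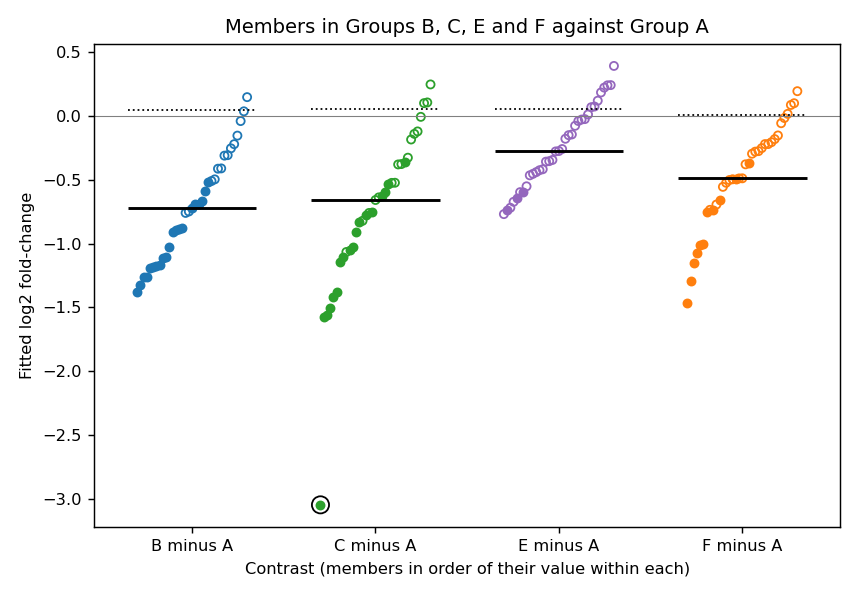
Fitted log2 fold-change of each of the 35 members (points, in order of value) in Groups B, C, E and F against Group A; filled points have an unadjusted p below 0.05 and the ringed point an adjusted p below 0.05. The black line is the median of the members (-0.72, -0.66, -0.28 and -0.49) and the dotted line that of the 14064 probes that met the flag condition.

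Within Group A, 1 array stood above the others. Array A4 held the highest of the 20 values for 21 members, and its average deviation over the members was 0.90, against 0.29, 0.34 and 0.22 for the other Group A arrays. Without it the medians were -0.60 for B, -0.53 for C, -0.24 for F and -0.11 for E. The numbers of members at an unadjusted p below 0.05 (limma) were then 18, 13, 8 and 1. The share of all probes was not counted for fits without 1 array, so these counts have no background beside them. The count for E moved with single arrays on either side, from 1 without A4 or E3 to 9 without A3. Within slides 1, 2 and 3 the medians for B were -0.68, -0.54 and -1.04 and those for C -0.56, -0.57 and -1.05. Those for F were -0.62, -0.23 and -0.88. For E they were -0.12, 0.19 and -0.94, where the flagged probes had -0.12, 0.27 and -0.0021. On slides 1 and 2 E thus lay near the flagged probes, and on slide 3 well below them. For B, C and F the medians of the flagged probes lay between -0.11 and 0.25. Slides 2 and 3 held 1 Group A array each, and that on slide 3 was A4.

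**Figure D4:**
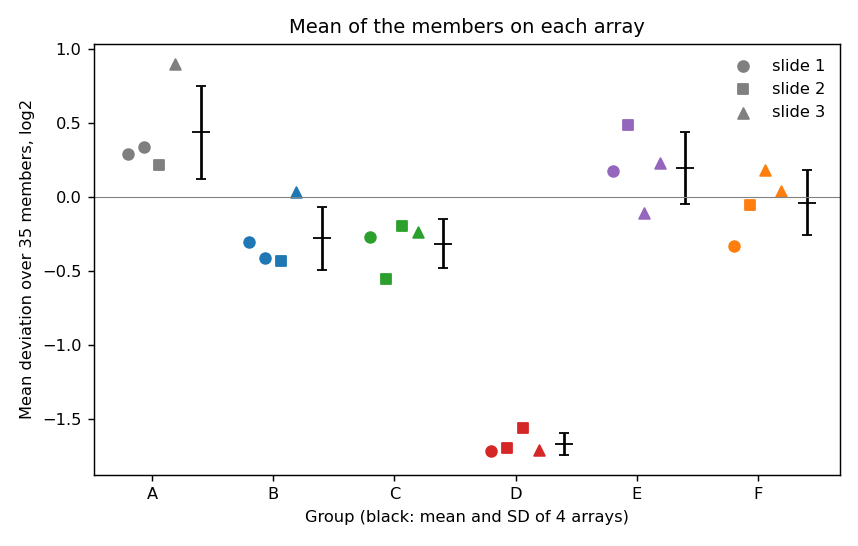
Average over the 35 members of the deviation from each member's mean over the 20 arrays outside Group D (log2, vertical axis), for each array of Groups A to F, with symbols for the slide and the mean and SD of 4 arrays in black. The Group D arrays lie between -1.71 and -1.56, array A4 at 0.90, and the arrays of B and C between -0.56 and 0.03.

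The order of the groups among the members differed from that over the array, above all for Groups A, B and C. Group A had the highest mean of the 5 groups for 24 members, E for 7, F for 3, C for 1 and B for 0, whereas A was highest for 25.2% of the probes that met the flag condition. The lowest mean was in B for 14 members and in C for 14, in F for 6, in A for 1 and in E for 0. Over the flagged probes B was lowest for 19.3%, C for 13.3%, F for 21.9%, A for 30.3% and E for 15.2%. The count of 6 for F lay nearest to its share. By single arrays, the lowest of the 20 values lay in C for 15 members and in B for 14, and C2 alone was lowest for 10. It lay in F for 5, in E for 1 and in A for 0. Over the flagged probes the shares were 14.4% for C, 14.8% for B, 22.9% for F, 11.9% for E and 36.0% for A. The lowest of the 20 values was also the limit of the rule, so these counts are a description.

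Few members were called in tests across all of the groups outside D. The F-test over A, B, C, E and F called 1 member, CUST_13087 again, with an adjusted p of 0.0239, where 0.035% of all probes were called. With slide as a block it was not called (0 members). The F-test over B, C, E and F alone called 0 members at an adjusted p below 0.05, where 0.00499% of all probes were called, and CUST_13087 was nearest with an adjusted p of 0.0938. At an unadjusted p below 0.05 it gave 8 members, 22.9% of the 35, against 3.13% of all probes and 5.61% of the flagged ones. That count was 3 with scaling to the 75th percentile, where the share of all probes was not counted.

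By the mean of the 4 contrasts with A, the largest falls on this scale were those of CUST_13087, at -1.32, and of CUST_58662, at -1.07. The place of CUST_58662 depends on the scale: the third member, CUST_5100, was at -1.06, and on the authors' log2 values CUST_58662 was at -0.56 and 15th of the 35, whereas CUST_13087 was first on both. CUST_58662 had levels of 7.36, 6.58, 5.77 and 7.22 in Group A and of 5.44, 5.36, 5.53 and 4.75 in Group F. It was well above background on 2 of the 4 Group F arrays and on 3 of 4 in B and in C. Its change from A to F was -1.46 ± 0.45 (SE) and did not pass after adjustment by limma (adjusted p = 0.41). The levels of A and F did not overlap, and 2 of those in F were not well above background.

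The largest rises were small. CUST_49195 (transcript SBRGG_20067) had a mean of the 4 contrasts of 0.13, with levels of 11.62, 11.34, 11.46 and 11.45 in Group A and group means of 11.50 in B, 11.57 in C, 11.65 in E and 11.66 in F. Its Group D levels were 10.865, 10.697, 10.858 and 11.095. The arrays of A, B, C, E and F ran from 11.26 to 11.85, and those of D lay below that range. CUST_17813 (transcript SBRGG_03992) had a mean contrast of 0.12 and group means from 7.98 in F to 8.65 in E, against 5.87, 5.65, 6.62 and 5.86 in Group D. The Group A mean of this member, 8.26, lay above that of F and below those of B, C and E. Group D was 5.13-fold below the mean of the 20 others, a log2 difference of -2.36. On the authors' log2 values that difference was -1.58.

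The levels of the members were correlated over the 20 arrays outside Group D, whose lowest value the rule used. The median correlation over the 595 pairs of members was 0.36, against 0.02 over pairs of probes that met the flag condition, and 44 pairs were below 0. On deviations from the group means, which leave out the feed, the median was 0.23 against 0.02, and after removal of group and slide 0.27 against 0.04. These are descriptions over 20 arrays that all pairs share, and genes measured on the same arrays are not independent.

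Pairs with a correlation above 0.9 joined 17 members into 3 sets of 9, 6 and 2, which were formed after the values were seen and were not tested. The set of 9 held CUST_11970, and its median change from A was -1.17 in B, -1.38 in C, -0.55 in E and -0.50 in F. The set of 6 had -0.96 in B, -0.71 in C, -0.39 in E and -0.88 in F. Group F was thus nearer to A than B and C were in the first set, and near to B in the second. The median of Group D minus the 20 others was -2.05 in the set of 9, -1.31 in the set of 6 and -1.51 in the pair. On array A4 both larger sets were highest, with average deviations of 1.46 and 1.22.

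The closest pair, named here after its values were seen, was CUST_1069 (transcript SBRGG_11759) and CUST_1876 (transcript SBRGG_11770), with a correlation of 0.987 over the 20 arrays. Their transcript numbers, 11 apart, are the nearest of any 2 members. Whether they come from 1 gene is not known from the files. Elsewhere the members were scattered, with at least 60 design numbers between any 2 and positions from row 4 to row 384 of the array's 384 rows.

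Of the 15 probes with a symbol, 1 had all Group D arrays below the 20 others and would have been a member without the exclusion. It was aldh1l1, named here after its values were seen, which encodes 10-formyltetrahydrofolate dehydrogenase, an enzyme of folate one-carbon metabolism. Its levels in Group D were 11.45, 11.03, 12.08 and 12.22. Its lowest other array was B1, at 12.43, and the group means were 13.37 ± 0.29 (SD, n = 4) in A, 12.90 ± 0.51 in B, 13.63 ± 0.33 in C, 12.87 ± 0.16 in E and 13.24 ± 0.23 in F. Group D minus the 20 others was -1.51 on the log2 scale, as for the median member. Unlike most members, aldh1l1 had its highest group mean in C.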

How the data were processed

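The 24 arrays, 4 in each of 6 groups, were one-colour Agilent arrays hybridised with liver RNA. The authors deposited, for each array, the scanner's background-subtracted and processed spot intensities with their flags. They also deposited a table of log2 values that they had quantile-normalized (Partek, per the submitters' processing notes). In 21 of its 24 columns the ranks match the scanner output of the same sample best, and the 3 others, all of Group F, match another Group F array, which leaves the groups intact. Members were found in that table, which outside these 3 columns ranks the probes as the background-subtracted intensity does. The members, lists and tests were chosen with earlier results of these data known. Levels and tests use the deposited processed intensities, with control and outlier spots left out and repeat spots averaged as log2 values, quantile-normalized over 24 arrays. Array depth was taken as the percentage of spots with that flag (well above background), and 4 arrays per group limit the precision. Feed group was the only factor in limma 3.58.1 (R 4.3.3), fitted to all 60080 probes of the 20 arrays outside Group D, with Benjamini-Hochberg adjustment within each comparison. The methods name a 3-way analysis of variance with quantile-normalized data, whose factors are not given in the sources used here. A call needs an adjusted p below 0.05, for contrasts with at least a 2-fold change. The fit was tested on simulated data. Named by number were the 2 members with the widest gap, the 2 with the narrowest, and the 2 with the largest fall and the 2 with the largest rise of the mean of the 4 contrasts with A. Alternatives for the signal were 75th percentile scaling (over 7960 probes well above background on all 24 arrays) and normexp correction with an offset of 50. The deposited log2 values, outlier spots kept and leaving out dim probes were others. Alternatives for the fit were a block for slide or for replicate number, a fit of 24 arrays and other thresholds. A t-test for each probe and leaving out each array were the last. Other software was Python 3.11.15 with numpy 2.4.6, pandas 2.3.3 and matplotlib 3.10.9, and data.table (version 1.17.8).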

Additional observations from a re-analysis of the deposited data

Results flagged for a closer look

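Among the 7 members named by number, 42 sets of 4 arrays were examined for an array far from the other 3 by Dixon's ratio, and 2 held one, where chance gives about 1 in 20 sets, here 2.1. For CUST_57795, array E3 was at 10.30, below the other Group E arrays at 10.52 to 10.55. For CUST_19964, array A4 was at 8.33, above the other Group A arrays at 6.57 to 6.80. The second is the array that was highest for 21 of the members.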

How the results depend on the processing

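The rule was met by 33 probes on the quantile-normalized scanner signal, 35 after scaling to the 75th percentile, 37 after normexp correction and 32 with outlier spots kept, of which 33, 29, 33 and 32 were members, and by 35 to 61 probes without 1 array, the last without D1, with 34 or 35 of the members among them. The median of Group D minus the others lay between -1.68 and -1.11 over the other settings and slides and between -1.55 and -1.37 without 1 array. Members called in C against A, 1 as reported, were 0 with a t-test for each probe at the same adjusted and 2-fold limits. They were 2 with normexp, the deposited values, slide as a block or a fit of 24 arrays. Among probes well above background on at least 10 of the 20 arrays they were 3. Those in B against A, 0 as reported, were 3 with that filter and 1 with 24 arrays. The fit of 24 arrays takes the spread within Group D into its variances. The rule used those arrays, so nothing is read from its counts. The F-test across 5 groups called 0 with slide as a block, and that across B, C, E and F called 1 with the filter or with 24 arrays. Without 1 array, these counts were 1 to 2 for C (2 without B3), 0 to 1 for B (1 without E2 or E3), 0 to 1 for the F-test across 5 groups (0 without A2, A3, C2, C4 or E4), and 0 throughout for E, F and the F-test across B, C, E and F. The filter tests fewer probes, 14064, and the cause of the other differences was not tested. The share of all probes called was not counted in these settings, so these member counts have no background beside them.

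Replicate numbers are shared between groups, but arrays of the same number did not all deviate together (correlations from -0.40 to 0.57 over 60 pairs, mean 0.16, against -0.05 over 180 pairs of other numbers and 0.23 for arrays of 1 slide). For arrays of different slides the mean was -0.11, below that for arrays of 1 slide. Since not every pair was above 0.1, the numbers were not taken as pairs, which does not show that they are unrelated. Slide and number were left out of the reported fit and used as blocks among the alternatives. All arrays of replicate 1 lay on slide 1 and all of replicate 4 on slide 3, so that number and slide are partly the same. With the replicate block, 2 members were called in C and 1 in B. For the counts at an unadjusted p below 0.05, alternatives were chosen after seeing the data. The count for E, 3 as reported, was 1 after scaling to the 75th percentile, 8 with slide as a block and 6 with the replicate block. The count of the F-test across B, C, E and F, 8 as reported, was 3 after scaling and 13 with the replicate block. Without 1 array the counts were 17 to 25 for B, 13 to 21 for C, 1 to 9 for E, 8 to 13 for F and 5 to 14 for the F-test. Shares of all probes were not counted in these other settings. Signals near background limit the dim members: Group D minus the others for CUST_58662 was -0.66 with normexp and -0.69 with the deposited values, against -1.95 as reported and a lower limit of 2.04-fold that holds on that scale only, and for CUST_13087 it was -4.72 with normexp.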
